A study of Bombyx mori with 6 samples.

Results

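The silkworm, Bombyx mori, carries a family of 30 kDa lipoprotein genes, and 7 of its members took 30.2 to 41.1% of all counts in each of 6 RNA libraries labelled as fat body. They are the 7 most abundant genes of that family in the deposited table, chosen by their level from 16877 gene models, and they carry neighbouring identifiers between KWMTBOMO11900 and KWMTBOMO11909. RNA sequencing libraries labelled siUFBP1 (n = 3) were compared with libraries labelled siNC (n = 3). The first group received a small interfering RNA against UFBP1, an endoplasmic reticulum membrane protein of the UFM1 conjugation pathway, and the second a negative control small interfering RNA.

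Per the labels, all groups share the P50 strain and the fat body as tissue. The protocol describes 30 larvae on the third day of the fifth instar. Each was injected with 2.5 µg of small interfering RNA, and 12 h later was given 5 µL of a suspension of BmNPV, a baculovirus of the silkworm. Controls therefore met the virus too. Harvest times of 24, 48 and 72 h are named without a time for each library, and the labels also name the ovary-derived cell line BmN. The labels do not say how many larvae stand behind a library, and the p-values cover the variation among these libraries, possibly no more than technical variation. The label of fat body was checked against its products: storage proteins took 16.6% ± 0.192 of the counts in siUFBP1 and 33.3% ± 0.391 in siNC (SD, n = 3 each). Together, 26 ovary and germ line genes held 57.7 to 63.2 CPM (counts scaled to a common library total) in siUFBP1 and 43.4 to 44.9 in siNC. Most of the 26 are chorion genes, which a cell line need not express, so their low sum cannot tell BmN from fat body.

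The 30 kDa lipoproteins, or 30K proteins, are made by the fat body of late larvae and secreted into the hemolymph, where they accumulate before pupation. They bind lipids and sugars and are later taken up by developing eggs as a nutrient store. Some members have also been studied as inhibitors of apoptosis and as proteins that enter cells. The family is particular to moths and butterflies and shares a conserved Pfam domain.

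By product name, KWMTBOMO11904 and KWMTBOMO11901 are both 19G1-like precursors, KWMTBOMO11906 is PBMHPC-19 and KWMTBOMO11903 a PBMHPC-19-like precursor. KWMTBOMO11909 is PBMHP-6, the 30Kc6 protein studied as an inhibitor of apoptosis, KWMTBOMO11908 is 21G1, and KWMTBOMO11900 is named 30K protein 11. The identifiers in between hold a further family gene, KWMTBOMO11902 (PBMHP-12), a reverse transcriptase and a transposase by product name. In the RefSeq gene table of assembly ASM3026992v2, genes named for these proteins lie on 1 chromosome in the order Lp-c23, Lp-c12, a gene with the synonym 19G1P, LP3 (C-19), LP4 (21G1) and Lp-c6. The deposited rows carry no RefSeq number for the 7 genes, so this order is given by name alone.

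Library totals ran from 25570725 to 53204480 counts in siUFBP1 and from 27100565 to 31760120 in siNC. The siUFBP1 library of replicate 3 was the deepest and stood farthest from its replicates (chi-square per degree of freedom 10.8 and 14.4, against 2.68 to 3.56 for the other pairs), so results that turn on it are given without it too. The targeted gene, UFBP1 (KWMTBOMO13599), had 32.7, 34.4 and 34.6 normalised CPM in siUFBP1 and 36.5, 31.1 and 34.2 in siNC, with overlapping groups and an adjusted p of 0.951 (edgeR). With library size alone its log2 fold change was 0.80. A lower level of the targeted transcript was therefore not seen, and siUFBP1 stands here for the libraries labelled so. The 9 silk gland genes took 10.1 to 11.8% of the counts in siUFBP1 and 0.050 to 0.053% in siNC. Of these, 8 were detected in siUFBP1 and 6 in siNC, where sericin 2 (KWMTBOMO06334) and a fibroin heavy chain-like gene (KWMTBOMO11380) had no count. In siUFBP1 they had only 14 and 30 counts, summed over the libraries, so this contrast lies near the floor. More genes had any count in siUFBP1 (13447 to 14474 per library) than in siNC (11335 to 11606). Summed CPM also differed without overlap for muscle genes (2145 to 2279 in siUFBP1, 408 to 430.2 in siNC) and cuticle genes (1931 to 2091 in siUFBP1, 438 to 439 in siNC). The same held for midgut genes (131 to 143 in siUFBP1, 30.8 to 34.3 in siNC) and testis genes (483 to 575 in siUFBP1, 9.79 to 11.0 in siNC). Hemocyte genes had 297 to 313 in siUFBP1 and 239 to 249 in siNC. By product name, most of the hemocyte list are integrin or class B scavenger receptor genes, so its sum is not read as hemocyte content. These sums use library size alone, with which 80.2% of all tested genes were called higher. With TMM scaling, which sets the bulk of genes equal, most tested muscle, cuticle, midgut and testis genes were still higher. Of 29 tested hemocyte genes, however, 18 were then lower and 7 higher (median log2 fold change -0.45). Beside these, 28.4% of all tested genes were lower and 40% higher with TMM scaling.

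The first question was how much of each library the 7 genes took. Their summed share of counts was 32.0%, 31.3% and 30.2% in the siUFBP1 libraries, against 41.1%, 39.9% and 40.7% in the siNC libraries. All 3 siUFBP1 libraries lay below all 3 siNC libraries. The mean was 31.2% ± 0.946 in siUFBP1 and 40.5% ± 0.621 in siNC (SD, n = 3 each), a ratio of 0.769 (exact two-sided permutation test, p = 0.1, the smallest that 3 against 3 libraries can give). Wilson 95% intervals were at most 0.0185 percentage points to either side for any library and cover counting error only, so depth does not limit these shares.

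A share depends on what else is in the library. With silk gland and testis genes left out of the total, the 7 genes took 35.1% ± 1.40 in siUFBP1 and 40.6% ± 0.621 in siNC, and the groups still did not overlap. With the storage proteins left out instead, the shares were 37.4% ± 1.06 in siUFBP1 and 60.8% ± 0.595 in siNC (SD, n = 3 each). The part of the other tissue markers in the difference was not tested. In bulk RNA, fewer fat body cells and less of these transcripts per cell cannot be told apart. Of the fat body products, the storage proteins took a lower share of the counts in siUFBP1. The list of lipid transport genes also holds receptors and fatty acid-binding genes named for muscle. Its summed share was lower too (0.477% in siUFBP1, 0.531% in siNC). Of its 22 tested genes, however, 14 were higher and 6 lower with library size alone, beside 4.22% of all tested genes lower. The transferrins took a higher share (0.195% in siUFBP1, 0.127% in siNC), but so did most genes: with library size alone 80.2% of all tested genes were called higher.

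**Figure D1:**
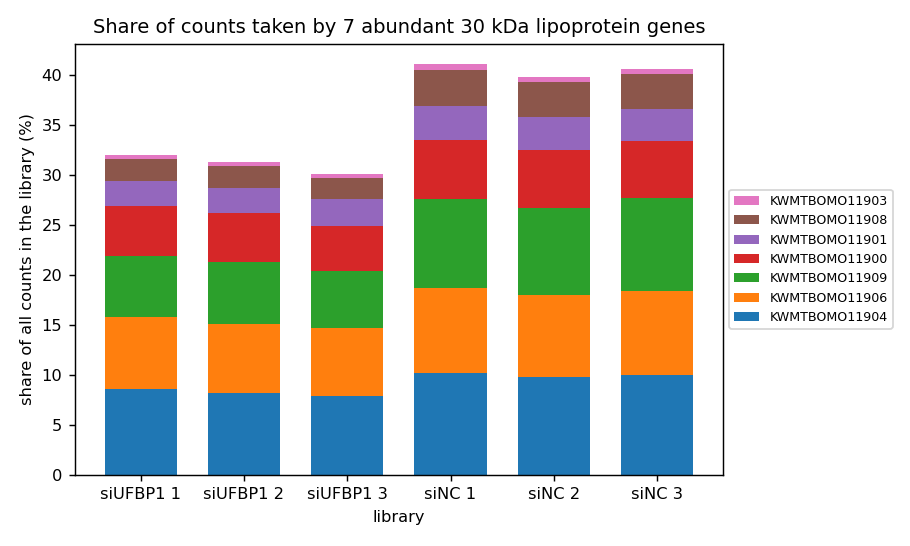
Share of all counts (%) taken by each of the 7 genes in each library, stacked, with the 3 siUFBP1 libraries on the left and the 3 siNC libraries on the right. The stacks reach 30.2 to 32.0% in siUFBP1 and 39.9 to 41.1% in siNC.

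The order of abundance was read from FPKM, which divides by gene length and library size. These levels chose the genes and are given as a description. KWMTBOMO11904 (19G1-like) was the most abundant transcript of all in every library, with 80934, 76313 and 73933 FPKM in siUFBP1 and 96249, 93127 and 95043 FPKM in siNC. KWMTBOMO11906 (PBMHPC-19) had 65776, 62915 and 60887 FPKM in siUFBP1 and 77400, 75775 and 76921 FPKM in siNC. Both stood lower in every siUFBP1 library, with no overlap. In siUFBP1 they were the first and second genes of the whole table.

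KWMTBOMO11909 (PBMHP-6) had 56799, 57497 and 52663 FPKM in siUFBP1 and 82814, 82506 and 87005 FPKM in siNC. It was the second most abundant gene of the table in all siNC libraries and the next below KWMTBOMO11906 in all siUFBP1 libraries. Its groups did not overlap, and in siUFBP1 it was lower in every library. KWMTBOMO11900 (30K protein 11) stood at rank 4 in every library, with 48950, 48219 and 44146 FPKM in siUFBP1 and 58734, 57997 and 56903 FPKM in siNC.

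The next pair changed places as well. KWMTBOMO11908 (21G1) had 19225, 19268 and 18562 FPKM in siUFBP1 and 32044, 31297 and 31798 FPKM in siNC. KWMTBOMO11901 (19G1-like) had 23194, 22622 and 24419 FPKM in siUFBP1 and 30604, 30234 and 29144 FPKM in siNC. KWMTBOMO11908 was thus above KWMTBOMO11901 in all siNC libraries, by a mean factor of 1.06, and below it in all siUFBP1 libraries, where KWMTBOMO11901 was higher by a factor of 1.23. Within each group no 2 neighbours in the order had overlapping ranges.

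KWMTBOMO11903 (PBMHPC-19-like) was the least abundant of the 7, with 4271, 4258 and 4290 FPKM in siUFBP1 and 5561, 5660 and 5636 FPKM in siNC. The FPKM of the groups did not overlap, with siUFBP1 lower, for any of the 7, and for 4.72% of all tested genes. The mean of KWMTBOMO11903 over 6 libraries was 4946 FPKM, 17.4-fold below that of KWMTBOMO11904. The most abundant family gene outside the 7, KWMTBOMO11894 (PBMHP-12-like), averaged 1278 FPKM. Among all genes the 7 held positions 1 to 4, 7, 9 and 12 by mean FPKM.

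**Figure D2:**
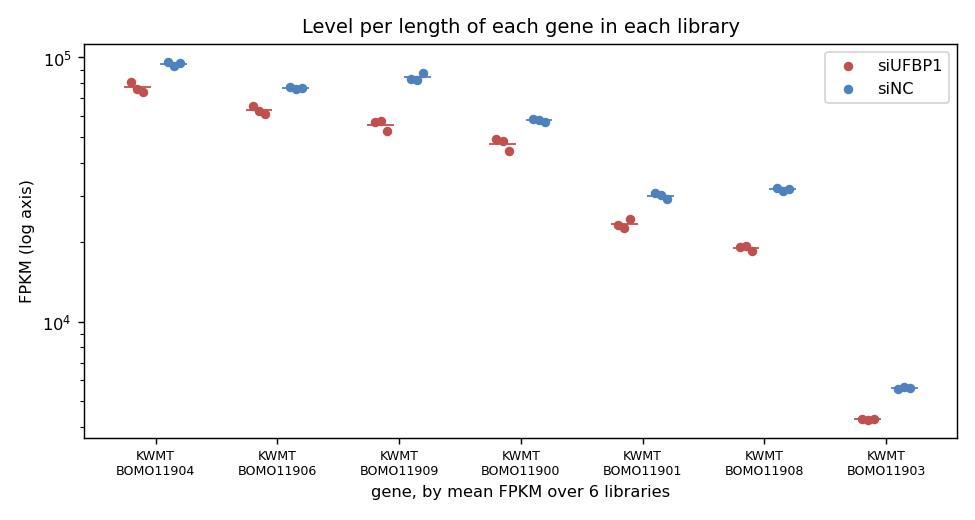
FPKM of each gene in each library on a log axis (points) with the group mean (line), siUFBP1 left of siNC for every gene. KWMTBOMO11909 lies above KWMTBOMO11906 in siNC and below it in siUFBP1, and KWMTBOMO11908 and KWMTBOMO11901 likewise change places.

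The second question was the fold between groups once libraries were scaled by TMM, which sets the bulk of genes equal between libraries. Under this scaling all 7 genes were lower in siUFBP1, between 2.08-fold and 2.86-fold. For comparison, 28.4% of all 10729 tested genes were called lower at an adjusted p of 0.05, 40% higher and 68.4% in either direction. A fall of at least 2-fold was called for 5.11% of genes and for all 7. All 7 passed the filter on low counts. The median log2 fold change of the 7 was -1.14, beside 0.11 over all tested genes.

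KWMTBOMO11908 (21G1) fell furthest, to 16094 ± 920 normalised CPM in siUFBP1, against 46017 ± 1182 in siNC (SD, n = 3 each). The fitted log2 fold change was -1.52 ± 0.04 (SE; edgeR quasi-likelihood test with Benjamini-Hochberg adjustment, adjusted p = 6.34e-17). KWMTBOMO11909 (PBMHP-6) followed with 45849 ± 3769 in siUFBP1 and 118761 ± 5310 in siNC, which is -1.37 ± 0.05 on the log2 scale (SE; edgeR, adjusted p = 8.17e-15). For both genes the lowest siNC library was more than double the highest siUFBP1 library.

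The other 5 genes fell by 1.06 to 1.17 on the log2 scale. The most abundant, KWMTBOMO11904 (19G1-like), averaged 62590 ± 4958 normalised CPM in siUFBP1 and 131981 ± 3878 in siNC (SD, n = 3 each), a log2 fold change of -1.08 ± 0.04 (SE; edgeR, adjusted p = 8.32e-14). KWMTBOMO11906 (PBMHPC-19) had the smallest change of the 7, at -1.06 ± 0.04, and KWMTBOMO11900 was close to it at -1.07 ± 0.05. KWMTBOMO11901 and KWMTBOMO11903 stood at -1.14 ± 0.03 and -1.17 ± 0.03 (SE). The groups did not overlap for any of the 7, as they did not, with siUFBP1 lower, for 29.8% of all tested genes. The authors' deposited table, whose sign runs the same way, gives the 7 log2 fold changes from -1.06 (KWMTBOMO11906) to -1.52 (KWMTBOMO11908).

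The size of the fall rests on the scaling. TMM factors were 1.28 to 1.38 in siUFBP1 and 0.746 to 0.767 in siNC. With library size alone the log2 fold changes were -0.72 ± 0.03 for KWMTBOMO11908, -0.58 ± 0.03 for KWMTBOMO11909 and -0.26 to -0.38 for the other 5, or 1.20-fold to 1.65-fold lower. All 7 stayed below the threshold of 0.05 (edgeR, adjusted p of 5.35e-08 or less), where 4.22% of tested genes were called lower, and none reached 2-fold, which 1.09% of tested genes did. Relative to TMM, library size alone raised the median of all tested genes by 0.80, and upper quartile scaling shifted it by -0.14. With upper quartile scaling the 7 genes ran from -1.20 to -1.66, beside 35.5% of tested genes called lower and 33.9% higher.

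**Figure D3:**
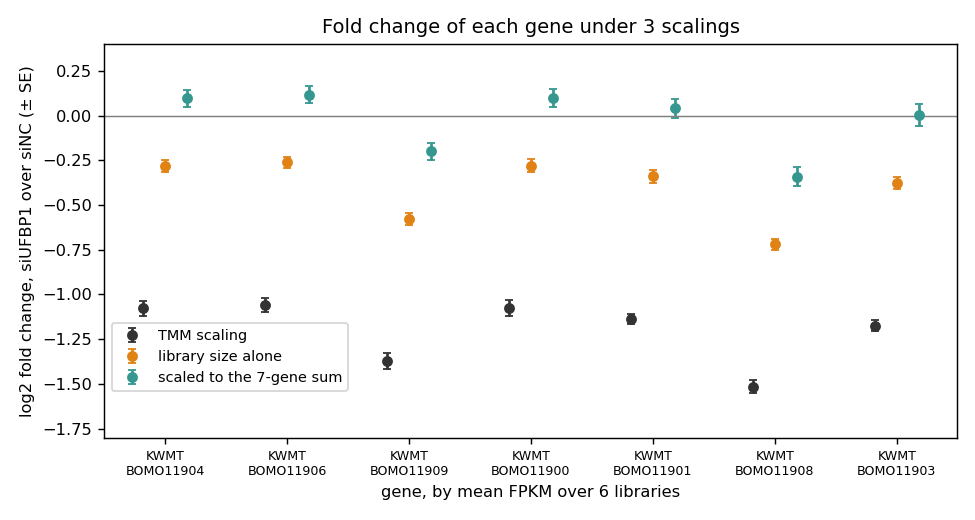
Log2 fold change, siUFBP1 over siNC, of each gene with its SE under TMM scaling, under library size alone and with each library scaled to the sum of the 7 genes. All 7 points are below 0 with TMM scaling and with library size alone, and KWMTBOMO11908 and KWMTBOMO11909 are the lowest under each scaling.

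Unequal change among the 7 genes was measured without any scaling between libraries, as the share of each within their sum. KWMTBOMO11908 (21G1) made up 6.65%, 6.85% and 6.89% of the sum in siUFBP1 and 8.64%, 8.59% and 8.60% in siNC. KWMTBOMO11909 (PBMHP-6) made up 19.13%, 19.90% and 19.01% in siUFBP1 and 21.73%, 22.04% and 22.88% in siNC. Both were lower in every siUFBP1 library, by 1.81 and 2.87 percentage points on average.

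Shares of 1 sum balance each other, and those of 3 others were higher in siUFBP1 without overlap. KWMTBOMO11904 (19G1-like) held 26.9%, 26.0% and 26.3% in siUFBP1 and 24.9%, 24.5% and 24.7% in siNC. KWMTBOMO11906 (PBMHPC-19) held 22.3% ± 0.191 in siUFBP1 and 20.5% ± 0.0429 in siNC, and KWMTBOMO11900 held 15.3% ± 0.365 in siUFBP1 and 14.3% ± 0.266 in siNC (SD, n = 3 each). The groups overlapped for KWMTBOMO11901 (8.41% ± 0.592 in siUFBP1, 8.18% ± 0.233 in siNC) and for KWMTBOMO11903 (1.43% ± 0.0541 in siUFBP1, 1.43% ± 0.0256 in siNC). The siUFBP1 library of replicate 3 held the highest share of KWMTBOMO11901, 9.10%, against 8.06% and 8.08% in its replicates. Over the 7 shares the exact two-sided permutation test gave p = 0.1 for each of the 5 that did not overlap, the smallest possible, and 0.14 after Benjamini-Hochberg adjustment.

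**Figure D4:**
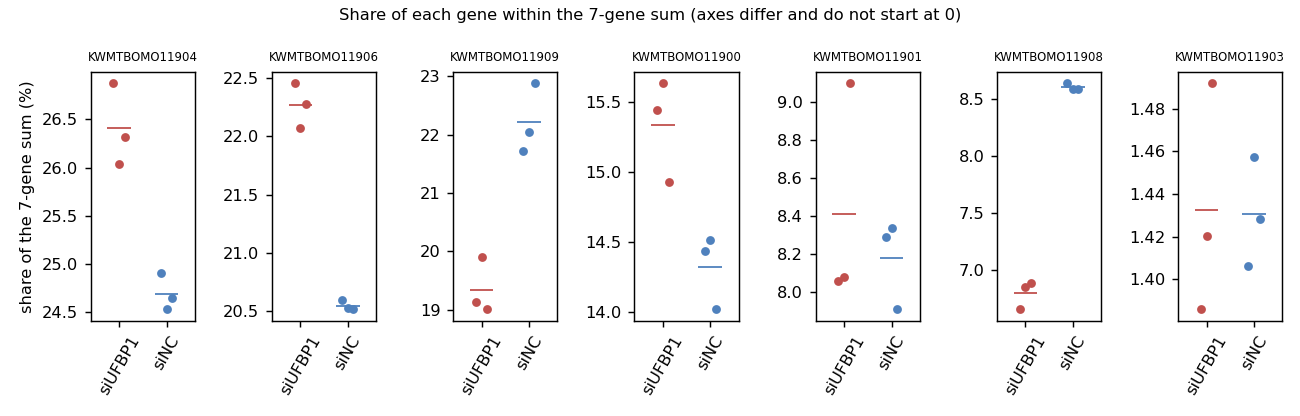
Share (%) of each gene in the summed counts of the 7 genes, per library (points) with the group mean (line), siUFBP1 left of siNC. Axes differ between panels and do not start at 0. KWMTBOMO11908 and KWMTBOMO11909 are lower in siUFBP1, KWMTBOMO11904, KWMTBOMO11906 and KWMTBOMO11900 are higher, and the groups overlap for KWMTBOMO11901 and KWMTBOMO11903.

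An edgeR fit over the whole table with each library scaled to the 7-gene sum, a setting chosen after seeing the data, tests the same question with the spread shared across genes. Relative to the sum, KWMTBOMO11908 was lower by a log2 fold change of -0.34 ± 0.05 (edgeR, adjusted p = 1.45e-09) and KWMTBOMO11909 by -0.20 ± 0.05 (SE; adjusted p = 6.41e-05). Because the sum is held equal, lower values for these 2 must be balanced by higher values elsewhere among the 7. Relative to the sum alone, KWMTBOMO11906 and KWMTBOMO11904 were at 0.12 ± 0.05 (edgeR, adjusted p = 0.0171) and 0.097 ± 0.05 (adjusted p = 0.044). KWMTBOMO11900 was at 0.098 ± 0.05 (edgeR, adjusted p = 0.0522), and KWMTBOMO11901 and KWMTBOMO11903 at 0.041 ± 0.05 and 0.0021 ± 0.06 (SE; adjusted p = 0.451 and 0.973). Under this scaling 1.56% of all tested genes were called lower and 91.1% higher. With so many genes called, the adjustment over all tested genes is light, and none was made over the 7 alone. The call for KWMTBOMO11904 was lost without any 1 library other than siUFBP1 replicate 3 (0.084 to 0.11), and that for KWMTBOMO11906 without any 1 siNC library (0.12 each), whereas KWMTBOMO11908 and KWMTBOMO11909, neighbours in the identifier order, kept theirs without any 1 library.

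Of 21 pairs among the 7 genes, the log2 ratio of FPKM did not overlap between groups in 12, including all 10 pairs of KWMTBOMO11908 or KWMTBOMO11909 with one of the other 5 genes. These 10 ratios moved by 0.20 to 0.46. The 2 genes were set apart after their values were seen, and the pairs share genes. The split therefore restates the shares above and adds no separate support. How often pairs of other genes lack overlap was not computed. The change was largest between KWMTBOMO11906 and KWMTBOMO11908, at 1.73 in siUFBP1 and 1.27 in siNC. Among the other 5 genes, 10 pairs moved by at most 0.11 and 1 of them, KWMTBOMO11903 with KWMTBOMO11906, did not overlap. The exact permutation p was 0.1 for each of the 12, and 0.175 adjusted over the 21 pairs. The 7 genes belong to 1 family, and the labels do not say how reads that fit several copies were assigned, so levels of single copies are uncertain.

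The third question was how the rest of the family behaved. Of 60 gene models with the family domain or name, 53 lie outside the 7, of which 13 had no count in any library and 25 passed the filter on low counts. These 53 genes together took 0.333% ± 0.0138 of the counts in siUFBP1 and 0.309% ± 0.00468 in siNC, so that the 7 abundant genes made up 98.9% ± 0.0744 of family counts in siUFBP1 and 99.2% ± 0.0198 in siNC (SD, n = 3 each). The summed share of the 53 was thus higher in every siUFBP1 library (exact two-sided permutation test, p = 0.1), while that of the 7 was lower. Of the 25 that passed, 18 were lower with TMM scaling, 1 was higher and for 6 no call was made (median log2 fold change -0.56), beside 28.4% of all tested genes lower and 40% higher. With library size alone the count turned to 4 lower and 13 higher (median 0.25), beside 80.2% of all tested genes higher.

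The most abundant family gene outside the 7, KWMTBOMO11894 (PBMHP-12-like), lies in the same identifier run, with other family genes between it and the 7. It had 1155, 1149 and 1217 FPKM in siUFBP1 and 1359, 1380 and 1410 FPKM in siNC. Its log2 fold change was -1.02 ± 0.03 (SE), near that of the 7. KWMTBOMO11902 (PBMHP-12), which sits between members, had only 27.5, 26.3 and 30.1 FPKM in siUFBP1 and 26.8, 41.6 and 32.8 FPKM in siNC. The FPKM of the groups overlapped there, and the log2 fold change was -1.05 ± 0.10 with TMM scaling (edgeR, adjusted p = 2.55e-08).

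KWMTBOMO11895 and KWMTBOMO11898, both 19G1-like, stood at -0.56 ± 0.03 and -1.25 ± 0.04, and KWMTBOMO11896, 21G1-like with 13 to 36 counts per library, at -0.89 ± 0.34 (SE). With library size alone KWMTBOMO11895 turned to 0.24. The largest fall in the family was that of KWMTBOMO11897, another 21G1-like gene, with 10.2, 9.03 and 8.89 FPKM in siUFBP1 and 16.0, 17.0 and 17.8 FPKM in siNC. Its log2 fold change was -1.65 ± 0.07 (SE; edgeR, adjusted p = 2.96e-13).

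A second run of family genes, KWMTBOMO11931 to KWMTBOMO11955, is mostly named microvitellogenin, a related small yolk protein. Of its 20 genes outside the 7, 13 passed the filter, 6 were lower, 1 was higher and 6 were not called. Of all tested genes 28.4% were lower and 40% higher. The median log2 fold change of the run was -0.25, and under library size alone 9 were higher, beside 80.2% of all tested genes. The 1 that rose, KWMTBOMO11950, is the only family gene called higher with TMM scaling. It had 152, 148 and 310 counts in siUFBP1 and 8, 13 and 5 in siNC, a log2 fold change of 3.46 ± 0.22 (SE; edgeR, adjusted p = 1.28e-10), or 11.0-fold. A rise of at least 2-fold was called for 22.7% of all tested genes. Its level stayed low, at 5.44 ± 0.0359 FPKM in siUFBP1 and 0.267 ± 0.115 in siNC (SD, n = 3 each).

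**Figure D5:**
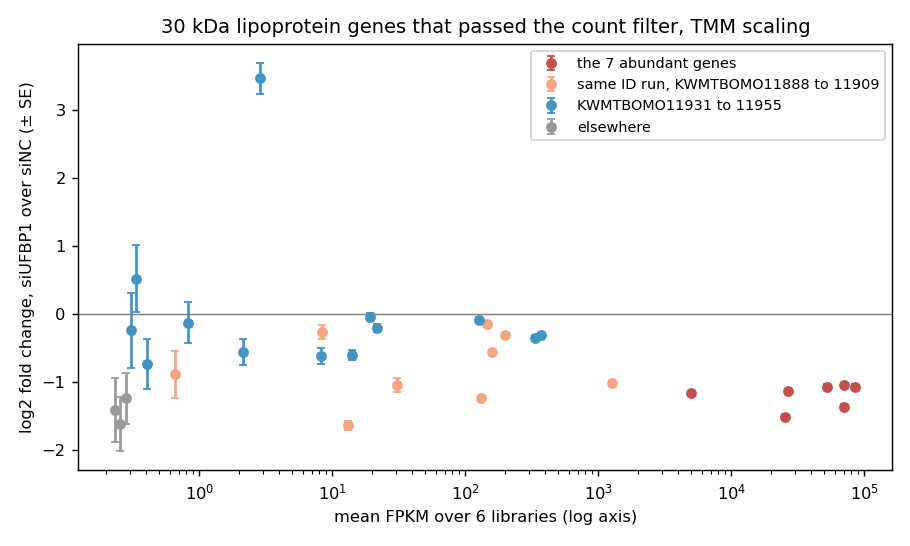
Log2 fold change, siUFBP1 over siNC, with its SE under TMM scaling against mean FPKM over 6 libraries (log axis), for the 32 family genes that passed the count filter. The 7 abundant genes lie between -1.06 and -1.52, the other genes of the same identifier run between -0.15 and -1.65, and KWMTBOMO11950 stands alone at 3.46.

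The storage proteins, hexamerins that the larval fat body also secretes in bulk, held ranks 5, 6 and 8 among all genes by mean FPKM, between members of the set. All 7 storage protein genes were lower with TMM scaling, with log2 fold changes from -0.60 to -3.73 and a median of -1.44, and 5 were lower with library size alone. Of all tested genes, 28.4% were lower with TMM scaling and 4.22% with library size alone. Sex-specific storage-protein 2 (KWMTBOMO01262) averaged 31280 ± 236 FPKM in siUFBP1 and 38482 ± 452 in siNC, and silkworm storage protein (KWMTBOMO01263) 25834 ± 175 in siUFBP1 and 40878 ± 737 in siNC (SD, n = 3 each). On the log2 scale with TMM these stood at -1.08 ± 0.03 and -1.44 ± 0.03 (SE), within the range of the 7 lipoprotein genes. Others of the list fell further or less far, and those named next were chosen after their values were seen. Sex-specific storage-protein 1 (KWMTBOMO13992) had 5913, 6016 and 6090 FPKM in siUFBP1 and 45049, 47308 and 46575 FPKM in siNC, a log2 fold change of -3.73 ± 0.03 (SE; edgeR, adjusted p = 3.74e-23). A basic juvenile hormone-suppressible protein 2-like gene (KWMTBOMO01258) and an arylphorin subunit beta-like gene (KWMTBOMO01259) stood at -3.10 ± 0.04 and -1.98 ± 0.03 (SE). These 3 fell further than any of the 7 lipoprotein genes. A hexamerin-1.1-like gene (KWMTBOMO01261) and an acidic juvenile hormone-suppressible protein 1 gene (KWMTBOMO01264) fell less than any of the 7, at -0.60 ± 0.12 and -0.95 ± 0.05 (SE). With library size alone neither was called (0.20 and -0.15).

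Transferrins bind iron, and the main one circulates in the hemolymph. The 4 transferrin genes, a melanotransferrin among them, took 0.195% ± 0.00898 of the counts in siUFBP1 and 0.127% ± 0.00296 in siNC (SD, n = 3 each), without overlap, and 2 were lower and 2 higher with TMM scaling. The most abundant, KWMTBOMO13908, also chosen after its values were seen, had a log2 fold change of -0.18 ± 0.03 with TMM scaling and of 0.61 ± 0.04 with library size alone (SE). Lipid transport genes were mixed: of 22 that passed the filter, 6 were lower, 6 were higher and 10 were not called (median -0.05). Beside these counts and those of the transferrins, 28.4% of all tested genes were lower with TMM scaling and 40% higher.

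Among these lipid carriers, apolipophorin III (KWMTBOMO09373), an exchangeable lipoprotein of the hemolymph, had 836, 836 and 818 normalised CPM in siUFBP1 and 1651, 1685 and 1774 in siNC. Its log2 fold change was -1.04 ± 0.03, and that of apolipophorins (KWMTBOMO15892), the precursor of the main hemolymph lipoprotein, was -0.96 ± 0.03 (SE). With library size alone these were -0.24 and -0.16. The 5 vitellogenin gene models, which encode the main yolk protein precursor, had at most 48 counts in any siUFBP1 library and at most 12 in any siNC library.

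Across 462 described genes outside the family with a mean of at least 100 normalised CPM, likeness to the mean profile of the 7 was measured as the root mean square difference of centred log2 values over 6 libraries. The 5 nearest were a proline-rich extensin-like gene (KWMTBOMO02808, difference 0.031), 2 fungal protease inhibitor genes (KWMTBOMO05772 and KWMTBOMO01537, 0.036 and 0.060), a tudor staphylococcal nuclease gene (KWMTBOMO00462, 0.055) and the endoplasmic reticulum chaperone BiP (KWMTBOMO08642, 0.059). The same measure for the 7 genes themselves ran from 0.029 for KWMTBOMO11903 to 0.16 for KWMTBOMO11908. BiP, named in the title of the study, stood at 1151 normalised CPM in siUFBP1 and 2638 in siNC, a log2 fold change of -1.20 ± 0.03 (SE). The measure rests mostly on the difference between the 2 groups, since replicates lay close together.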

How the data were processed

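The submitters' processing notes name fastp and HISAT2 without versions, with the counter, its handling of strand and of shared reads, and the build not given in the sources used here. As deposited, 1 table holds raw counts and the authors' FPKM per gene and library, per the file headers, and the authors' own DESeq2 comparison.

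Of 16877 gene models, filterByExpr kept 10729 and left out 0.0479% of the counts. The main test was edgeR's quasi-likelihood test with TMM scaling and group as the only term, adjusted by Benjamini-Hochberg over all tested genes (common coefficient of variation 3.87%). The standard error is the absolute log2 fold change over the square root of F. The script was tested on simulated data in which few genes changed, as many up as down. That test does not bear on the scaling between these 2 groups. The alternatives included DESeq2, limma-voom, limma-trend on FPKM (log2 with a pseudocount of 1 or 0.1), and scaling to the 7-gene sum, added after seeing the data. Replicates all differed beyond sampling noise (chi-square per degree of freedom 2.68 to 14.4).

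The 7 genes and all lists were chosen with earlier results of these data known. Named genes are the 7, family genes next to them, the most abundant family gene outside them and the family genes with the largest rise and fall. The 2 most abundant of each comparison list, UFBP1 and the 5 genes of most similar profile are named too. Outside this rule, 2 silk gland genes without a count in siNC, the storage protein genes beyond the 2 most abundant and 1 transferrin gene were named after their values were seen. The family was matched by Pfam or product name, leaving out a dipeptidyl peptidase with the domain. Matches to genes of another kind were left out of all lists by product name, after those names were seen. No sequence of these genes was used here. Fits used edgeR 4.0.16, DESeq2 1.42.0 and limma 3.58.1 in R 4.3.3, and permutation tests SciPy 1.17.1 in Python 3.11.15.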

Additional observations from a re-analysis of the deposited data

How the results depend on the processing

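All 119 recomputed folds of the 7 genes kept their direction and their call, from -1.66 with upper quartile scaling to -0.26 with library size alone (largest adjusted p 0.000232). With library size alone 453 of all tested genes were lower and 8603 higher, 4 and 13 of the other 30 kDa lipoprotein genes, and 14 lipid transport genes were higher. Limma-trend on FPKM gave 406 lower with either pseudocount, 6625 higher with a pseudocount of 1 and 6601 with 0.1, and 3 lower and 10 higher among the other family genes. A 2-fold minimum left 548 lower and 2436 higher genes and 7 lower in the rest of the family. The difference in the summed share of the 7 genes was -9.37 percentage points, against -5.44 without silk gland and testis genes, -23.4 without storage proteins and -11.9 as a share of FPKM. These changes of denominator and scaling are arithmetic, and other causes were not tested.

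Leaving out 1 library at a time, relative to the 7-gene sum, gave 0.083 to 0.12 for KWMTBOMO11900, which passed without siUFBP1 replicate 3 (0.12). It gave 0.084 to 0.11 for KWMTBOMO11904 and 0.11 to 0.12 for KWMTBOMO11906. Ranges crossed 0 for KWMTBOMO11901 (-0.019 to 0.071, below 0 without siUFBP1 replicate 3) and KWMTBOMO11903 (-0.028 to 0.025, below 0 without siUFBP1 replicate 3 and, at -0.010, without siNC replicate 1). Their shares within the 7 did likewise, at -0.108 to 0.41 and -0.0276 to 0.0254 percentage points, with -0.0102 without siNC replicate 1. The share of KWMTBOMO11903 moved by -0.0023 points when taken of all family counts. KWMTBOMO11908 and KWMTBOMO11909 kept their relative calls in all 9 alternatives each (largest adjusted p 1.26e-06 and 0.00632). KWMTBOMO11900 passed relative to the sum with no filter (0.098) and with the replicate block (0.098).

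Same-numbered libraries did not deviate together (r = 0.024, -0.019 and 0.018). The labels state no pairing, and 3 libraries per group are too few to exclude one. The block changed no call among the 7 genes with TMM scaling.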
